A study of Mus musculus with 9 samples.

Results

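The protein genes of the cytoplasmic ribosome were followed through RNA sequencing of whole pancreas from mouse embryos at e15.5, mid to late gestation. Members were the rows named Rpl or Rps with a number, an optional a, x, y or l and an optional further number, together with Rplp0, Rplp1, Rplp2 and Rpsa. A member also had to reach 1 FPKM in at least 3 of the 9 libraries. FPKM is the number of sequenced fragments per kilobase of transcript, scaled to the number of mapped fragments, so it is a level per length. A comparison between genes therefore also rests on the transcript length assumed for each. The sources used here do not name the annotation behind these lengths. The names fitted 84 rows, of which 81 met the level threshold, 33 of the small subunit and 48 of the large subunit. They stood among 13306 genes that met the same threshold, out of 23235 listed symbols.

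The 9 libraries came from 3 genotypes with 3 libraries each: wild type, Blinc1+/- and Blinc1-/-, all on a mixed C57BL/6 and 129Sv background. Blinc1 is a long noncoding RNA gene next to Nkx2-2, an islet transcription factor gene, and the comparisons ask whether losing 1 or both alleles goes with a change in these transcripts. No row was analysed for Blinc1, so the level of the targeted gene gives no check of the labels. The neighbouring gene Nkx2-2 was at 15.2 to 25.5 FPKM in wild type. The library labelled Blinc1-/- replicate 1 was inside that range, at 24.9, while Blinc1-/- replicates 2 and 3 were at 6.08 and 5.48. The library labelled Blinc1+/- replicate 1, at 6.37, was near these last values, and the other Blinc1+/- libraries were at 19.0 and 13.4. Both libraries thus stood apart from their groups at Nkx2-2, and each comparison is also given without them. The sources used here do not say how the allele was made or whether the 3 libraries of a genotype were separate embryos or litters. The p-values below therefore reflect only the variation among these libraries, some of which may be technical. By the female transcript Xist, wild-type replicate 3, Blinc1+/- replicate 3 and all 3 Blinc1-/- libraries were female and the other 4 male, so sex and genotype were not balanced.

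Each cytoplasmic ribosome is built from ribosomal RNAs and a set of ribosomal proteins, nearly all present once per particle, so their genes are usually expressed as a coordinated group. Many of their messenger RNAs begin with a cytosine followed by an unbroken pyrimidine tract, through which growth signals acting on the mTOR pathway control their translation. The acinar cells of the pancreas, which make digestive enzymes, have one of the highest rates of protein synthesis in the body. Mammalian genomes also carry many processed copies of these genes, inserted from reverse-transcribed messenger RNA, and most such copies are pseudogenes. A short sequencing read can match the gene and its copies equally well.

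Start regions are shown because the pyrimidine tract is a sequence feature of many, though not all, of these genes that the selection by name did not use. RefSeq start windows (build GRCm38.p6) were matched by symbol for 60 of the 81 members. Each line runs 5′ to 3′ on the gene's strand from 10 bases before to 20 bases after an annotated start, and capitals mark the longest run of C and T in those 30 bases. The first 4 hold the longest runs found in these windows, the next are the paralog pair Rps27 and Rps27l, and the last 3 belong to members named in the genotype comparisons.
Rpl27a, chr7:109519185-109519214 (+): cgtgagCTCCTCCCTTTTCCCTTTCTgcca
Rpl35, chr2:39005112-39005141 (-): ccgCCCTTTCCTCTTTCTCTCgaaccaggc
Rpl15, chr14:18270967-18270996 (-): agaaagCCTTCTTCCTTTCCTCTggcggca
Rpl7a, chr2:26910797-26910826 (+): CTCTTCTTTCTTTCTCCagcagccgagcaa
Rps27, chr3:90213629-90213658 (-): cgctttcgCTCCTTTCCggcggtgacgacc
Rps27l, chr9:66946076-66946105 (+): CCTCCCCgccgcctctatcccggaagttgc
Rps4x, chrX:102189372-102189401 (-): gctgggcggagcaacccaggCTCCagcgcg
Rps3a, chr3:86142649-86142678 (-): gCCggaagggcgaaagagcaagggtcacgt
Rpl24, chr16:55966265-55966294 (+): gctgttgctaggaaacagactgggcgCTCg

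A run of 8 or more C or T within 20 bases before to 30 bases after an annotated start, read on the gene's strand, was present in 34 of 60 matched members (56.7%). The same was true of 21.5% of the 27025 genes with a RefSeq window and of 22.3% of the 9445 that were also tested here. A C followed by 4 pyrimidines exactly at the start was found in 13 of the 60 (21.7%), against 3.01% of all genes. The motif CCGGAAG on either strand, the core letters of an ETS factor site, stood within the 300 bases around the start in 25 members (41.7%), against 9.93% of all genes and 19.1% of tested genes. TATAAA on either strand was found in 7 members (11.7%), against 15.7% of all genes and 8.88% of tested genes. These are matches of letters in a window and say nothing on the use of a site. The tract is thus long in Rpl27a, Rpl35, Rpl15 and Rpl7a, whereas the windows of Rps4x, Rps3a and Rpl24 hold runs of 4, 2 and 3 bases. These last windows do not stand for all members named in the genotype comparisons. Others named there had runs of 3 (Rpl37), 6 (Rps2), 9 (Rps26) and 11 bases (Rps18).

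The members also host small nucleolar RNAs, which guide the chemical modification of ribosomal RNA and are cut from introns. A listed snoRNA lay inside the locus of 22 of the 81 members (27.2%), among them Rps3, Rpl13a, Rpl4 and Rpsa, against 0.534% of the 13306 tested genes (71). The members lay on 19 chromosomes, with 4 on the X.

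Although the proteins enter the ribosome in nearly equal numbers, the listed levels of their genes differed widely. Highest was Rpl41, the gene of a very short basic peptide of the large subunit, at 3364, 3623 and 3657 FPKM in wild type, 3601, 3994 and 3448 in Blinc1+/- and 3425, 3535 and 3629 in Blinc1-/-. Among the next highest by 9-library mean were Rpl8 (2316 FPKM) and Rps9 (2243). Rpl8 ranged from 2179 to 2419 and Rps9 from 2077 to 2353 over the 9 libraries, so their levels overlap. In all, 13 members had a mean of 1000 FPKM or more, 22 stood in the top 1% of tested genes by mean, and 25 had a mean under 100 FPKM.

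The lowest member, Rps12, a small-subunit protein gene, was at 5.33, 4.90 and 5.18 FPKM in wild type, 4.81, 5.06 and 5.17 in Blinc1+/- and 4.77, 3.88 and 5.86 in Blinc1-/-, from 31.9 to 42.4 implied fragments. Above it stood Rps27 (5.98 to 12.7 FPKM), Rpl21 (2.77 to 35.2), Rps29 (16.8 to 26.2) and Rpl37 (25.5 to 31.7). The ranges of Rps12 and Rps27 do not overlap, while that of Rpl21 includes both. Rps12 and Rps27 are also the members nearest above the threshold, with the 2 lowest means. Just outside it were Rpl39l, a testis-type paralog of Rpl39, at 0 to 0.373 FPKM, Rpl3l, a muscle paralog of Rpl3, at 0 to 0.218, and Rpl10l, a testis paralog of Rpl10, listed at 0 in all 9 libraries.

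**Figure D1:**
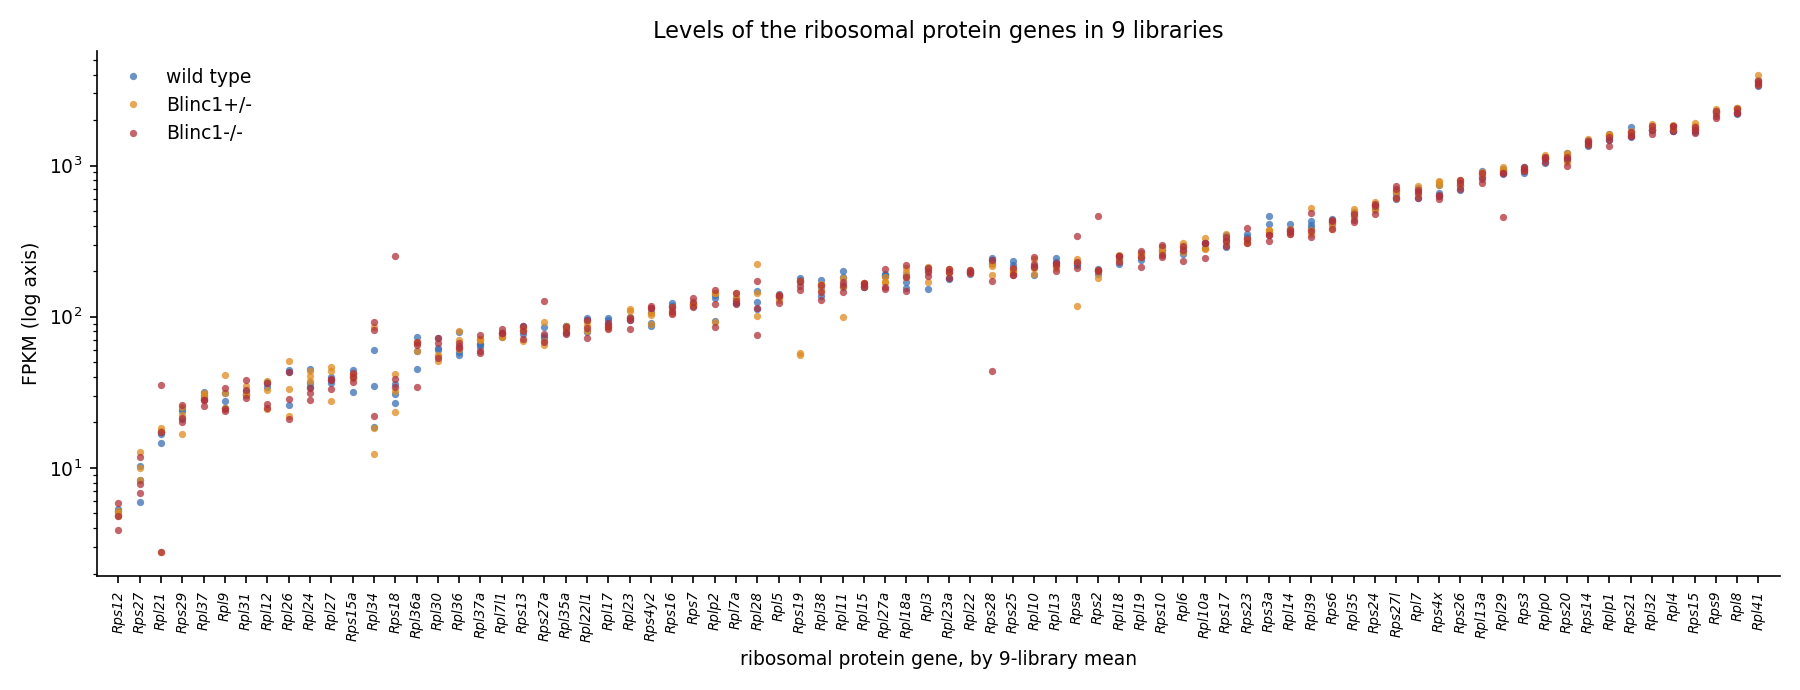
FPKM (log axis) of 78 of the 81 ribosomal protein genes, ordered by 9-library mean, with 1 point per library coloured by genotype. Points run from 2.77 FPKM for Rpl21 to 3994 for Rpl41, the genotypes lie over each other for most genes, and single points stand apart at Rpl21, Rps18, Rps28 and Rpl29.

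Members with many near-identical copies in the genome tended to be listed at lower levels. The coding sequence of 80 members was searched against the mm9 genome, and other places with at least 95% identity over at least 80% of the coding length were counted as copies. There were 591 such copies in all, with a median of 6 per member. Rps12 had 22, of which 18 are annotated as pseudogenes, and Rpl21 had 56. In contrast, no copy was found for Rpl8, Rps3, Rps27l and Rps4y2, among others. Median levels were 513 FPKM for the 14 members with 0 or 1 copies, 194 for the 49 with 2 to 9 and 162 for the 17 with 10 or more. Across these 80 genes, which share libraries and are not replicates, Spearman's rho between copy number and mean FPKM was -0.34, and Rps27 with 5 copies and Rpl37 with 2 were low all the same. The sources used here do not say how reads were divided between a gene and its copies, so a low listed level is not a measure of how much of that messenger RNA was present.

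In some cases the copy itself is listed, and it carried most of the summed FPKM. Rplp2, which encodes a protein of the acidic stalk that recruits elongation factors, was at 93.1, 133 and 140 FPKM in wild type, 92.4, 143 and 143 in Blinc1+/- and 85.5, 121 and 150 in Blinc1-/-. Its copy Rplp2-ps1 on chromosome 12, with 2 mismatches in 348 coding bases, was at 1261 to 1387 FPKM in every library. Rplp2 alone varied 1.75-fold between its highest and lowest library and the sum of gene and copy 1.14-fold, from 1347 to 1530. Rplp2 held only 8.53% of that sum, so the steadiness of the sum is mostly that of the copy. In replicate 1 of each genotype, where Rplp2 was low, the copy was at 1325, 1306 and 1261 FPKM (wild type, Blinc1+/-, Blinc1-/-). It was thus not at its highest there. Of its stalk partners, Rplp0 was at 1041 to 1173 FPKM and Rplp1 at 1344 to 1610. Rplp2 alone was below both, while the sum was above Rplp0 and within the range of Rplp1. Whether the fragments listed under the copy came from Rplp2 was not tested.

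Rps15a, a small-subunit gene, shows the same with 2 copies. The gene was at 31.7, 39.9 and 44.6 FPKM in wild type, 39.2, 41.2 and 41.7 in Blinc1+/- and 40.0, 42.6 and 37.1 in Blinc1-/-. Gm11968, with 5 mismatches in 393 coding bases, was at 151 to 327 FPKM, and Gm13253, with 10, was at 33.6 to 241. The copies moved against each other: Gm13253 was highest in wild-type replicate 3 (241) and Blinc1+/- replicate 3 (231), where Gm11968 was lowest (151 and 164). The sum of the 3 rows stayed between 367 and 437 FPKM, with Rps15a itself holding 9.92% of it. This is a share of FPKM and not of fragments. The Rps15a row rested on 3784.5 to 5471.8 implied fragments, against 486 to 902 for Rplp2 at 85.5 to 150 FPKM. The FPKM of Rps15a was thus low for its number of fragments, and its share of the fragments was not computed. The same 60 coding bases (positions 105 to 164 of the Rps15a coding sequence) are shown for the gene and both copies to show how little tells them apart, and then 60 bases for Rplp2 (positions 24 to 83) and its copy. All run 5′ to 3′ in the coding direction and are taken from mm9 and the GENCODE transcripts of that build. Capitals mark the positions at which the lines of a set differ.
Rps15a: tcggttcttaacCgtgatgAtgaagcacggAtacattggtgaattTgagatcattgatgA
Gm11968, chr11:6072876-6072935 (-): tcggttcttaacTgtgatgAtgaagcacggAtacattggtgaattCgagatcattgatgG
Gm13253, chr4:131776189-131776248 (-): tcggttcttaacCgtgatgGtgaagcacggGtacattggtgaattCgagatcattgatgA
Rplp2: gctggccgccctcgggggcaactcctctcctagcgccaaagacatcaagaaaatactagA
Rplp2-ps1, chr12:76732223-76732282 (-): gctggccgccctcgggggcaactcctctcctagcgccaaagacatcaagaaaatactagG

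**Figure D2:**
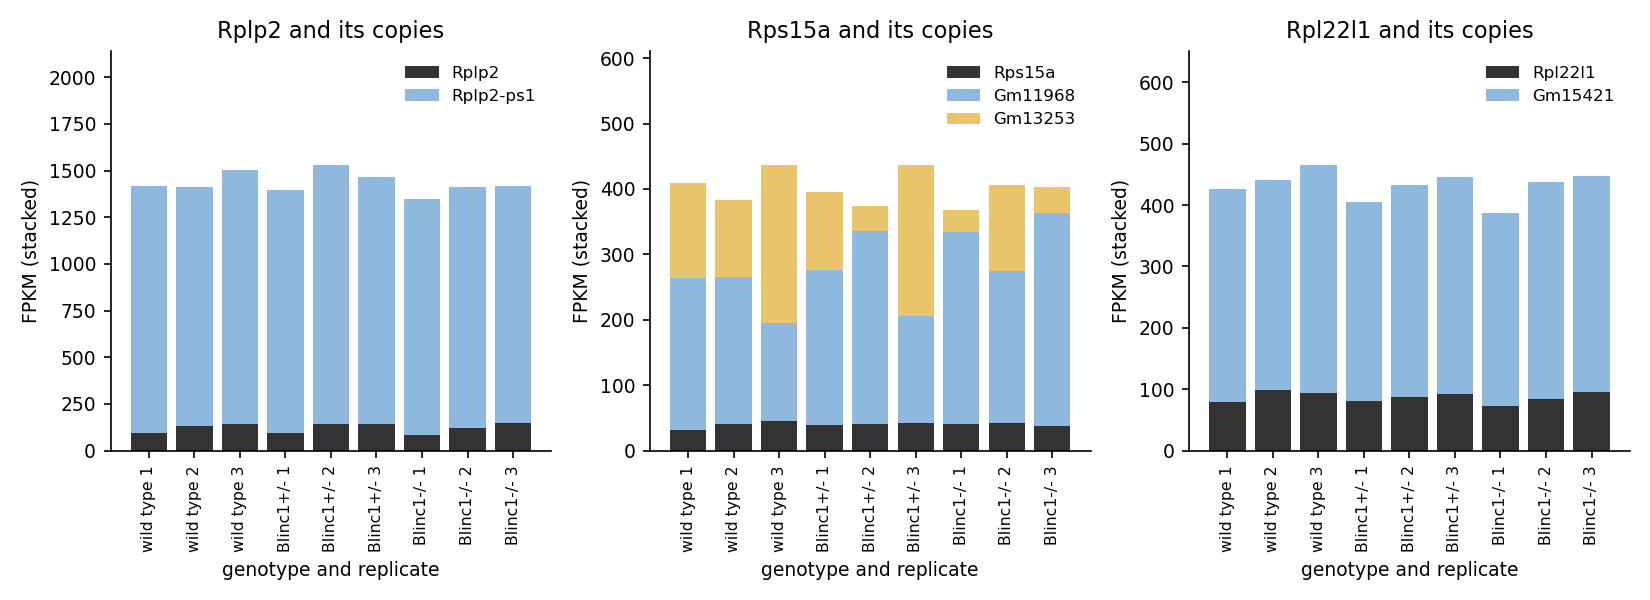
Stacked FPKM of 3 ribosomal protein genes and the listed copies, in each of the 9 libraries by genotype and replicate. The dark part is the gene itself, which is the smaller part in each panel, and in the Rps15a panel the shares of Gm11968 and Gm13253 trade places while the total stays between 367 and 437 FPKM.

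Other rows behaved in part alike. Rpl22l1, a paralog of Rpl22, was at 71.9 to 98.3 FPKM and its copy Gm15421, at 99.5% identity, at 315 to 371. For Rpl32 (1622 to 1888) and its copy Gm6251 (650 to 872) the sum varied 1.08-fold against 1.16-fold for the gene alone. Adding the listed row did not even out every gene: for Rps19 with Rps19-ps3 the sum still varied 2.59-fold, and for Rpl26 with Gm15772, a row over the same locus at 118 to 470 FPKM, it varied 3.36-fold against 2.43-fold for Rpl26 alone.

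Ribosomal protein paralogs can replace their parent in some ribosomes or act outside them. Rps27l, a p53-inducible paralog of Rps27, was at 597, 619 and 657 FPKM in wild type, 609, 677 and 681 in Blinc1+/- and 611, 699 and 729 in Blinc1-/-, with a 9-library mean of 653 FPKM against 9.12 for Rps27. The coding sequences of the pair are 76.1% identical, below the identity used to count copies, and Rps27l has no copy while Rps27 has 5 and shares its locus with the row Gm9846 (3.45 to 49.5 FPKM). Rpl22 was at 191 to 204 FPKM and Rpl22l1 at 71.9 to 98.3, with 68.2% identity. Rpl7 (606 to 737) stood above Rpl7l1 (73.4 to 82.6), a nucleolar relative with 54.1% identity. Rpl36a, on the X, was at 34.3 to 73.5 FPKM, whereas Rpl36al, an autosomal paralog outside the name pattern, was at 644 to 798. Of the remaining parents, Rpl3 was at 152 to 212, Rpl10 at 190 to 249 and Rpl39 at 335 to 523 FPKM, each far above its tissue-restricted paralog listed near 0.

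Rpl5 and Rpl11, the large-subunit proteins that bind the p53 regulator Mdm2 when ribosome assembly is disturbed, had means of 135 and 162 FPKM. Rpl5 kept within 123 to 142 in the 9 libraries, while Rpl11 was at 99.3 FPKM in Blinc1+/- replicate 1 and at 147 to 200 elsewhere. Rps27a, translated as a fusion with ubiquitin, was at 64.9 to 91.7 FPKM in 8 libraries and at 128 in Blinc1-/- replicate 2. Ribosome components outside the name pattern were Fau (117 to 152 FPKM) and Gnb2l1, which encodes the scaffold protein Rack1 (1975 to 2119). Neither passed in any comparison (limma adjusted p from 0.623 to 1.0).

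Of the 4 X-linked members, Rps4x was at 629, 653 and 748 FPKM in wild type, 777, 742 and 787 in Blinc1+/- and 600, 631 and 636 in Blinc1-/-. Its range was 600 to 787 in the 5 female libraries and 629 to 777 in the 4 male ones, and the ranges of Rpl36a (34.3 to 73.5 and 44.8 to 68.0) and Rpl39 (335 to 523 and 354 to 406) overlapped too. For Rpl10 the female range was 214 to 249 and the male range 190 to 215, which overlap only at their ends.

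Most members shifted in the same direction in some libraries, by small amounts, and were split between the directions in others. Depth was similar, at 19532984 to 25437255 implied fragments per library, of which members took 2.19% (Blinc1-/- replicate 1) to 2.61% (Blinc1+/- replicate 2). The summed level of the 81 members was 38291, 39721 and 41210 FPKM in wild type, 40286, 41335 and 40285 in Blinc1+/- and 37239, 39348 and 41044 in Blinc1-/-. The 2 lowest sums were thus those of Blinc1-/- replicate 1 and wild-type replicate 1, and the genotypes overlap.

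Each member was then set against its own mean over the 9 libraries on the log2(FPKM + 1) scale. In Blinc1-/- replicate 1 only 11 of the 81 members were above their mean and the median deviation was -0.11, while 8470 of the 13306 tested genes were above theirs (median 0.03). Wild-type replicate 1 had 22 members above the mean (median -0.05), again with most tested genes above theirs (8207). In wild-type replicate 3 and Blinc1-/- replicate 3, 64 of 81 were above, with medians of 0.06 and 0.05. Of the 13306 tested genes, 7533 and 6237 were above theirs in these libraries. In wild-type replicate 2 the count was 46 of 81, in Blinc1+/- 50, 48 and 45, and in Blinc1-/- replicate 2 it was 39. Small-subunit and large-subunit members were both low in Blinc1-/- replicate 1, with medians of -0.11 and -0.14. The 14 members with 0 or 1 copies followed with a smaller deviation there (-0.06). Of 76 genes of the mitochondrial ribosome, which is built from a separate protein set, 37 were above their mean in Blinc1-/- replicate 1, 10 in wild-type replicate 1 and 11 in wild-type replicate 2. In wild-type replicate 3 and Blinc1-/- replicate 3 the counts were 58 and 54. Among 19 translation factors and other listed genes known for a pyrimidine start tract, 2 were above their mean in Blinc1-/- replicate 1 (median -0.06) and 3 in wild-type replicate 1 (-0.04). In wild-type replicate 3 and Blinc1-/- replicate 3, 14 and 15 of them were above (0.04 and 0.05). The differences between these gene sets were not tested.

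**Figure D3:**
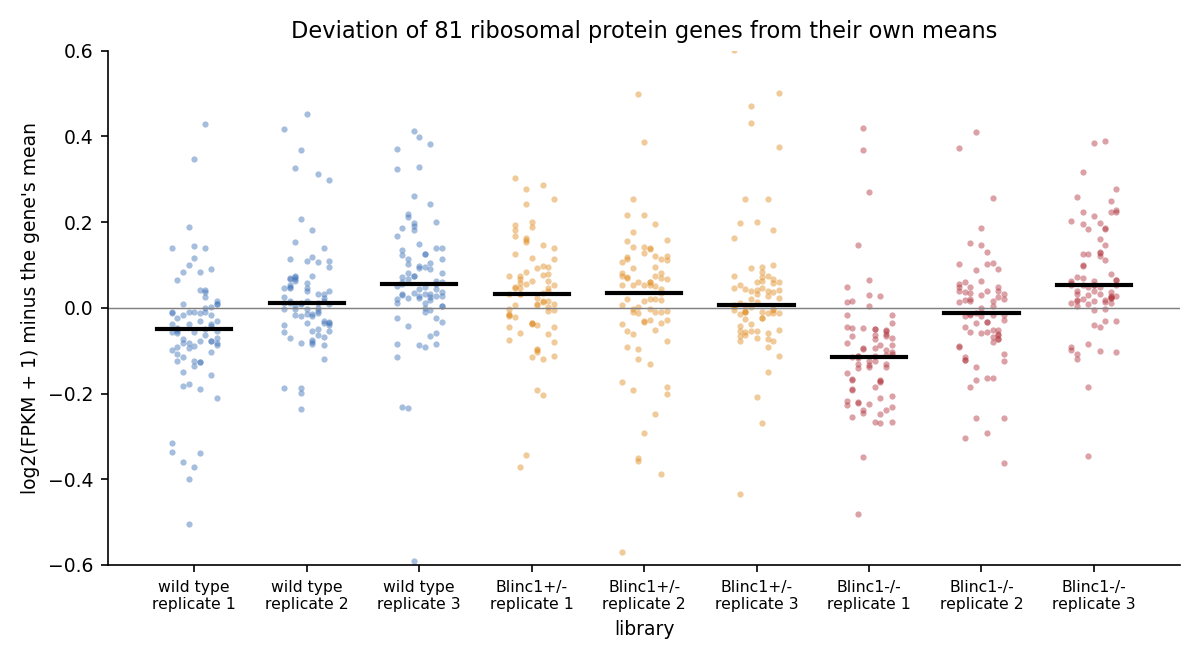
Each point is 1 of 81 ribosomal protein genes in 1 library, as log2(FPKM + 1) minus that gene's mean over 9 libraries, and the bar is the median of the library. The axis ends at 0.6 in either direction and 27 of 729 points lie beyond it; the bar of Blinc1-/- replicate 1 is the lowest, at -0.11.

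In Blinc1-/- against wild type, no ribosomal protein gene passed the test. limma on log2(FPKM + 1), fitted to all 9 libraries with p-values adjusted over 13306 genes, called 0 of 81 members at an adjusted p of 0.05, and 0 of all genes (0.0%). At an unadjusted p under 0.05 there was 1 member higher, against 2.6% of all genes, and 3 lower, against 5.79%. By share, 1 of 81 is 1.23% and 3 of 81 is 3.7%. With quantile normalisation there were 8 lower, against 4.28% of all genes, and with no filter on low values 6, against 3.78%. The groups did not overlap, with Blinc1-/- higher, for 2 members (4.55% of all genes) and, with it lower, for 5 (6.64% of all genes). Of the members, 29 had a difference above 0 (35.8%, against 41.5% of all genes), and the median difference was -0.04 against -0.03 for all genes. Without the library labelled Blinc1-/- replicate 1 the members' median was 0.02, with 51 of 81 above 0 and 4 higher and 3 lower at an unadjusted p under 0.05 (4.92% and 14.8% of all genes). Without that library and the one labelled Blinc1+/- replicate 1, the median was again 0.02 and the counts were 3 and 2 (4.82% and 14.9% of all genes). The lower count was 12 without Blinc1-/- replicate 3 (3.03% of all genes), 5 without Blinc1-/- replicate 2 (1.65%) and 1 without wild-type replicate 2 (2.13%). The higher count was 2 without Blinc1-/- replicate 3 (1.5% of all genes) and 2 without Blinc1-/- replicate 2 (1.35%).

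The members with the smallest p were Rps3a and Rps4y2. Rps3a, a small-subunit gene, was at 409, 361 and 464 FPKM in wild type and 317, 348 and 346 in Blinc1-/-. Blinc1+/- was at 366, 373 and 372, within the wild-type range. All 3 Blinc1-/- values lay below the lowest wild-type value, and the log2 difference was -0.28 (SE 0.09, limma adjusted p = 0.576). Rps4y2, an autosomal relative of Rps4x with 79.8% coding identity and no copy, was at 90.3, 107 and 87.1 FPKM in wild type, 106, 89.7 and 103 in Blinc1+/- and 114, 114 and 118 in Blinc1-/-. Every Blinc1-/- library was above every other library, with a log2 difference from wild type of 0.28 (SE 0.09, limma adjusted p = 0.576).

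Rpl24, a large-subunit gene whose dosage loss gives the mouse Belly spot and tail mutant, was at 34.1, 44.9 and 36.4 FPKM in wild type and 31.4, 28.0 and 33.7 in Blinc1-/-. The groups did not overlap, and the log2 difference was -0.29 (SE 0.11, limma adjusted p = 0.576). Rpl37, also of the large subunit, was at 30.03, 31.7 and 28.9 against 25.5, 28.0 and 28.2 FPKM (log2 difference -0.14, SE 0.06, limma adjusted p = 0.576). Next among the higher members came Rps18 (log2 difference 1.15, SE 0.63) and Rps2 (0.41, SE 0.27), with limma adjusted p of 0.584 and 0.621, and both rested on a single library. Without Blinc1-/- replicate 2 the differences were 0.23 and 0.01.

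In Blinc1+/- against wild type, limma again called 0 of 81 members and 0 of 13306 genes (0.0%). There was 1 member higher at an unadjusted p under 0.05, where all genes had 1.35%, and 4 lower (4.94% of members), where all genes had 2.58%. The groups were separate with Blinc1+/- higher for 5 members (3.54% of all genes) and lower for 8 (7.05% of all genes). A difference above 0 was found for 48 of 81 members (59.3%, against 42.9% of all genes), with a median of 0.03 against -0.02. Leaving out wild-type replicate 1 gave 36 of 81 and a median of -0.01, equal to that of all genes in the same fit at that rounding. Without the libraries labelled Blinc1-/- replicate 1 and Blinc1+/- replicate 1 the median was 0.02, with 48 of 81 above 0. The unadjusted counts were then 0 higher and 4 lower (1.28% and 3.56% of all genes). Scaling by median ratios gave 1 and 1 (1.89% and 2.28% of all genes). In the fit to these 2 groups alone the counts were 3 and 5 (1.58% and 3.84%). The unadjusted counts, higher and lower, were 0 and 3 without wild-type replicate 1 (1.25% and 1.73% of all genes). They were also 0 and 3 without wild-type replicate 2 (0.631% and 1.45%) or Blinc1+/- replicate 1 (1.0% and 2.04%). Without wild-type replicate 3 they were 3 and 2 (2.7% and 3.86%). They were 1 and 2 without Blinc1+/- replicate 2 (1.74% and 2.41%) and 2 and 1 without Blinc1+/- replicate 3 (1.42% and 2.58%).

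Rps19 had the largest difference and the smallest p here. It encodes the small-subunit protein most often mutated in Diamond-Blackfan anaemia. In wild type it was at 169, 181 and 175 FPKM and in Blinc1-/- at 160, 151 and 173, whereas in Blinc1+/- it was at 55.7, 173 and 57.2 FPKM. The low values thus stood in replicates 1 and 3 of Blinc1+/-, from 507 and 538 implied fragments, and replicate 2 lay within the range of the other genotypes. The log2 difference from wild type was -1.08 (SE 0.36, limma adjusted p = 0.945). Without Blinc1+/- replicate 2 it was -1.61 with a limma adjusted p of 7.21e-05, and over the other alternatives the adjusted p ran from 0.743 to 1.0. Rps19-ps3, its listed copy, stood at 17.7 to 24.8 FPKM in every library and did not rise where Rps19 was low. In all, 6 copies of Rps19 were counted in the genome.

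The other members with small p differed by less. Rpl17, a large-subunit gene, was at 88.9, 95.5 and 97.5 FPKM in wild type and 85.7, 83.7 and 85.2 in Blinc1+/- (log2 difference -0.14, SE 0.05). Rpl30 was at 62.5, 60.6 and 71.9 against 55.8, 50.9 and 54.6 (log2 difference -0.27, SE 0.11). In both genes every Blinc1+/- value lay below the wild-type values. Of the higher members, Rps4x (log2 difference 0.19, SE 0.07) and Rpl23a (0.12, SE 0.06) overlapped between groups and Rps26 (0.11, SE 0.07) did not, the last at 693, 742 and 729 FPKM against 787, 801 and 746. For each of these 5 genes limma gave an adjusted p of 0.945.

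In Blinc1-/- against Blinc1+/-, which contrasts loss of both alleles with loss of 1, limma called 0 of 81 members and 0 of 13306 genes (0.0%). At an unadjusted p under 0.05 there were 3 members higher (3.7%, against 1.26% of all genes) and 5 lower (6.17%, against 0.969%). The groups were separate for 2 members with Blinc1-/- higher (3.48% of all genes) and for 7 with it lower (8.64% of members, 2.43% of all genes). Only 24 of 81 differences were above 0 (29.6%, against 44.7% of all genes), and the median was -0.05 against -0.01. Without the library labelled Blinc1-/- replicate 1, 42 of 81 were above 0, the median was 0.00 and the unadjusted counts were 5 higher and 3 lower (2.35% and 6.58% of all genes). Without it and Blinc1+/- replicate 1 they were 4 and 3 (2.27% and 4.21% of all genes), with 41 of 81 above 0. They were 1 and 3 with a replicate block (1.21% and 1.25% of all genes) and 2 and 3 with scaling by median ratios (1.44% and 1.07%). In the fit to these 2 groups alone they were 1 and 4 (1.11% and 0.827%), and with no filter on low values 1 and 5 (1.49% and 1.16%). Those counts were 2 and 11 without Blinc1-/- replicate 3 (1.05% and 1.21% of all genes). They were 1 and 3 without Blinc1-/- replicate 2 (0.969% and 0.421%) or without Blinc1+/- replicate 2 (1.63% and 2.56%). Without Blinc1+/- replicate 1 they were 1 and 2 (1.34% and 0.819%), and without Blinc1+/- replicate 3 they were 2 and 6 (1.0% and 0.827%). These comparisons share their groups pairwise, so their values are not independent of each other.

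Rps4x had the smallest p of this comparison. As given above, its 3 Blinc1-/- values, 600 to 636 FPKM, lay below all 3 Blinc1+/- values, 742 to 787, with a log2 difference of -0.30 (SE 0.07, unadjusted p = 0.00185, limma adjusted p = 1.0). Rpl24 was at 31.4, 28.0 and 33.7 FPKM against 43.5, 40.6 and 37.4 (log2 difference -0.37, SE 0.11, limma adjusted p = 1.0), again without overlap. Rpl23, a large-subunit gene whose protein also binds Mdm2, was at 82.6, 94.7 and 98.0 against 109, 113 and 97.3, so the groups overlapped (log2 difference -0.21, SE 0.08). On the higher side stood Rps19 (0.96, SE 0.36), by way of the 2 low Blinc1+/- libraries, Rps4y2 (0.21, SE 0.09) and Rpl30 (0.25, SE 0.11). All had a limma adjusted p of 1.0.

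**Figure D4:**
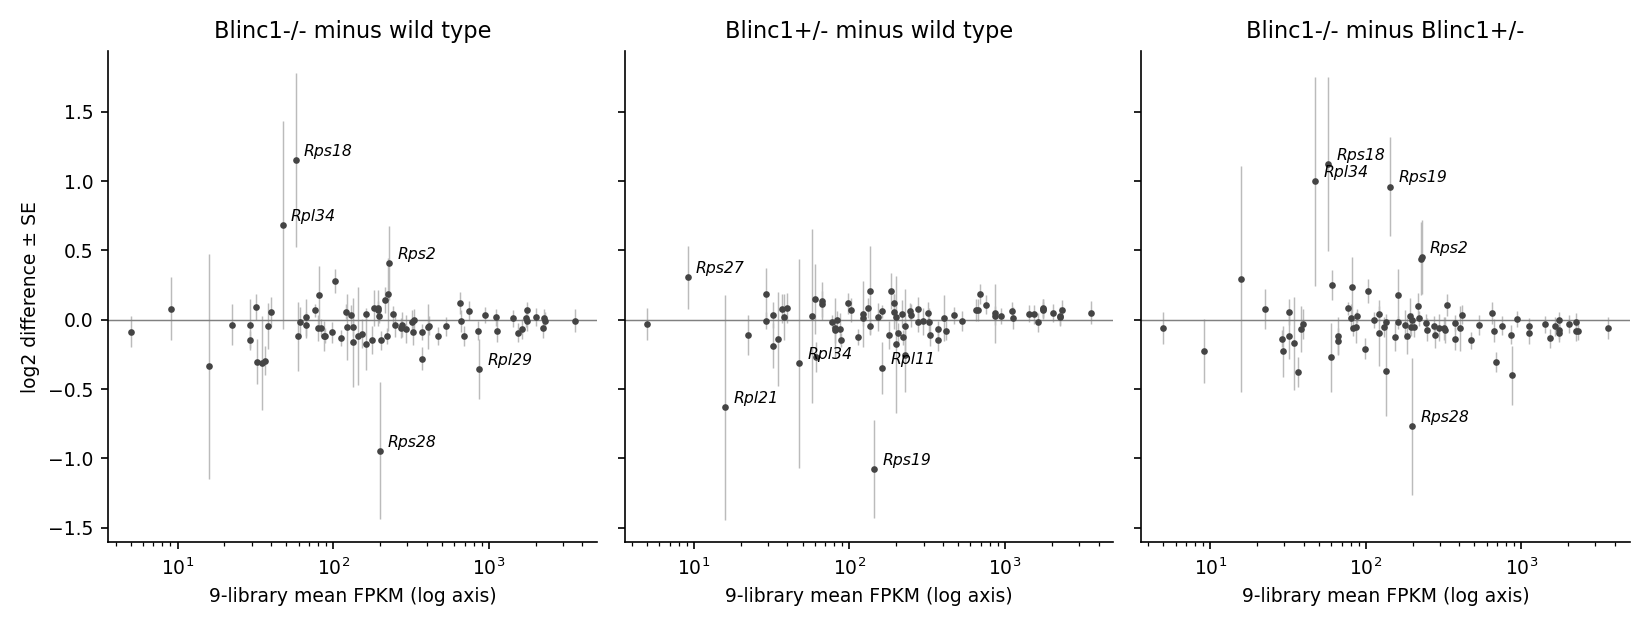
Log2 difference of each ribosomal protein gene (point, with its limma SE as the bar) against its 9-library mean FPKM on a log axis, for the 3 genotype comparisons, with the 5 largest differences named. Genes above 1000 FPKM lie close to 0 in each panel, and the largest differences, such as Rps18 at 1.15 and Rps19 at -1.08, carry wide bars.

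The stalk, paralog and assembly members can be read against those values. Rplp0, Rplp1 and Rplp2 differed from wild type by 0.02, -0.10 and -0.05 in Blinc1-/- and by 0.07, 0.04 and 0.04 in Blinc1+/- (log2). Rps27l differed by 0.12 and 0.07, Rpl22l1 by -0.12 and -0.06 and Rpl7l1 by 0.07 and -0.01. For Rpl5 the differences were -0.06 and -0.04 and for Rpl11 -0.17 and -0.35, the latter through Blinc1+/- replicate 1. None passed (limma adjusted p from 0.626 to 0.988).

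In some members single libraries departed from the rest, several of them far beyond the deposited confidence bounds. With a departure set at 1.5-fold or more from the median of the other 8 libraries, 31 were found in 16 members, and the remaining 65 members had none. The share of all tested genes with such a departure was not computed, so these counts have no background beside them. The departures were in every library but wild-type replicate 3, with 7 each in Blinc1+/- replicate 3 and Blinc1-/- replicate 2. Rpl34 departed in every library but wild-type replicate 3 and gave the only departure of wild-type replicate 2. Over the 9 libraries 39 members varied less than 1.25-fold between lowest and highest and 22 varied 1.5-fold or more. The median SD of log2(FPKM + 1) was 0.12 for the members, against 0.09 for the 7201 tested genes at a mean of 10 FPKM or more.

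The 5 most variable members by SD were Rpl21, Rpl34, Rps18, Rps28 and Rps19. Rps18, a small-subunit gene with 6 copies, was at 253 FPKM in Blinc1-/- replicate 2 (confidence bounds 243 to 264) and at 23.5 to 41.5 in the other 8 libraries, a 7.61-fold departure from their median. Rps28, also of the small subunit and with 8 copies, was at 43.4 FPKM in Blinc1-/- replicate 1 and at 173 to 245 elsewhere, 5.15-fold below the median of the others. Rpl21 was at 2.79 in Blinc1+/- replicate 1, 2.77 in Blinc1-/- replicate 3 and 35.2 in Blinc1-/- replicate 2, and at 14.6 to 18.4 FPKM in the remaining 6. The departures of Rps18 and Rps28 were each in 1 library, and those of Rpl21 in 3.

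Rpl34, a large-subunit gene, had no common level: it was at 60.3, 18.5 and 35.0 FPKM in wild type, 18.5, 12.4 and 85.0 in Blinc1+/- and 22.1, 92.2 and 81.9 in Blinc1-/-. A row named Rpl34-ps1 over the same locus was at 8.26 FPKM or less, and the sum still varied 7.53-fold. Less variable but clear were Rps2, at 467 FPKM in Blinc1-/- replicate 2 and 182 to 206 elsewhere, and Rpl29, at 460 in the same library and 880 to 979 elsewhere. Rpsa, which encodes the laminin receptor protein of the small subunit, was at 341 in that library, 117 in Blinc1+/- replicate 3 and 210 to 243 in the others. The same library, Blinc1-/- replicate 2, was thus high for Rps18, Rps2, Rps27a, Rpl21, Rpl34 and Rpsa and low for Rpl29.

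At the other end stood Rpl22 (191, 196 and 201 FPKM in wild type, 194, 200 and 204 in Blinc1+/- and 199, 196 and 204 in Blinc1-/-) and Rpl15, with SDs of 0.03 and 0.04 on the log2 scale. Rpl22 has 1 copy, but Rpl15 has 13, so a high copy number did not always go with a large spread. Over the 80 members with a count, Spearman's rho between copies and SD was 0.38 and between mean FPKM and SD -0.56, as a description. The median SD was 0.06 for members with 0 or 1 copies, 0.13 for those with 2 to 9 and 0.12 for those with 10 or more. The part of read assignment in the single-library departures was not tested.

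**Figure D5:**
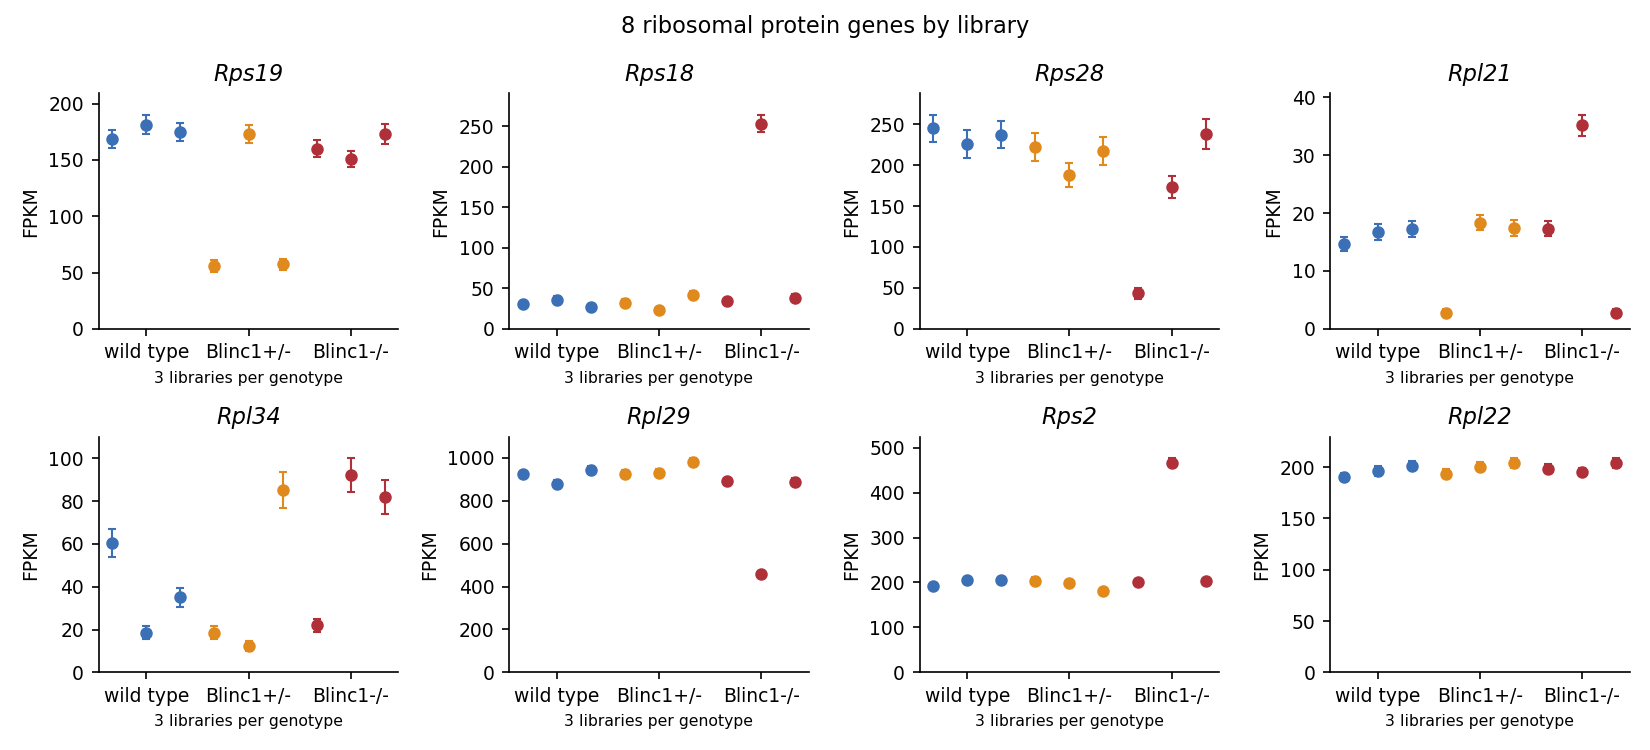
FPKM with the deposited confidence bounds in each of 9 libraries, grouped by genotype, for 7 members with departing libraries and for Rpl22, the least variable member. Rps19 is low in 2 Blinc1+/- libraries, Rps18 and Rps2 are high and Rpl29 is low in Blinc1-/- replicate 2, and the bounds are far narrower than these gaps.

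Without the 16 members that had a departing library, the summed level of the other 65 was 35886, 37261 and 38641 FPKM in wild type, 38017, 38946 and 37834 in Blinc1+/- and 35186, 36654 and 38546 in Blinc1-/-. Their median deviation was -0.11 in Blinc1-/- replicate 1 and -0.05 in wild-type replicate 1, the same 2 libraries as for the full set and close to its values.

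Genes that act with the ribosomal proteins were given by fixed lists. Of 19 translation factors and other genes with a pyrimidine start tract, 11 were higher in Blinc1-/- than in wild type and 13 in Blinc1+/-, with medians of 0.02 and 0.05 and none called. Smallest p values were those of Hnrnpa1, an RNA-binding protein gene (27.7 ± 1.38 FPKM in Blinc1-/- and 39.9 ± 6.06 in wild type, SD, n = 3, limma adjusted p = 0.576), and Tpt1, which encodes a growth-linked tumour protein (367 ± 48.1 and 433 ± 33.7, limma adjusted p = 0.576). In Blinc1+/- Tpt1 was at 374 ± 7.26 and Eif3h, an initiation factor subunit gene, at 308 ± 19.7 against 285 ± 6.07 in wild type (limma adjusted p = 0.945). Between the mutants, Eef1g (236 ± 11.6 in Blinc1-/- and 251 ± 7.99 in Blinc1+/-) and Hnrnpa1 came first (limma adjusted p = 1.0).

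Of 47 ribosome biogenesis genes, 33 were higher in Blinc1-/- and 32 in Blinc1+/- than in wild type, with medians of 0.03 in both and none called. Riok2, an assembly kinase gene, was at 12.1 ± 0.33 FPKM in Blinc1-/- and 11.02 ± 0.16 in wild type, and Nop10, of the H/ACA snoRNP, at 170 ± 23.4 and 144 ± 4.70 (SD, n = 3, limma adjusted p = 0.576). In Blinc1+/- Nop10 was at 169 ± 19.1 and Nhp2, its partner, at 90.5 ± 2.40 against 82.0 ± 5.76 in wild type (limma adjusted p = 0.945). Mrto4 (28.2 ± 1.28 and 31.3 ± 0.57) and Polr1a, the large subunit gene of RNA polymerase I (11.8 ± 0.82 and 10.3 ± 0.72), led Blinc1-/- against Blinc1+/- (limma adjusted p = 1.0).

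Of 14 growth control genes around mTOR, 6 were higher in Blinc1-/- and 5 in Blinc1+/-, both with a median of -0.02. Larp1, which binds the pyrimidine start tract, was at 63.5 ± 5.06 FPKM in Blinc1-/-, 59.3 ± 6.54 in Blinc1+/- and 53.5 ± 5.45 in wild type, and Tsc1, an mTOR inhibitor gene, at 4.33 ± 0.17, 4.92 ± 0.26 and 4.97 ± 0.34 (SD, n = 3). Neither passed, nor did the ribosomal S6 kinases Rps6kb2 (17.9 ± 0.56 in Blinc1+/- and 15.7 ± 1.27 in wild type) and Rps6kb1 (17.2 ± 1.02 in Blinc1-/- and 16.0 ± 0.71 in Blinc1+/-), with limma adjusted p of 0.576 or more. Of 14 p53 targets, which respond when Rpl5 and Rpl11 hold Mdm2, 9 and 11 were higher, with medians of 0.04 and 0.05 and none called. Tnfrsf10b (4.29 ± 0.83 and 6.18 ± 1.69) and Plk2 (125 ± 8.45 and 113 ± 8.49) had the smallest p in Blinc1-/- against wild type, Bax (97.3 ± 2.82 and 85.0 ± 5.33) and Bbc3 (7.30 ± 0.70 and 6.12 ± 0.15) in Blinc1+/- against wild type, and Bax and Sesn2 between the mutants (limma adjusted p of at least 0.576, 0.945 and 1.0).

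The 76 tested mitochondrial ribosomal protein genes had 61 members higher in Blinc1-/- and 61 in Blinc1+/- than in wild type, with medians of 0.06 and 0.05 and none called. For the cytoplasmic members those counts were 29 and 48 of 81. Both mutant groups are set against the same 3 wild-type libraries, and the difference between the cytoplasmic and the mitochondrial set was not tested.

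Marker lists give the makeup of the tissue beside these values, and in bulk RNA fewer cells of a type and less RNA per cell cannot be told apart. The pancreas markers were present in every library, with Ptf1a, an acinar and progenitor factor, at 67.6 to 118 FPKM and Pdx1, a pancreatic factor, at 29.8 to 38.7. The summed level of 11 tested acinar markers was 17780 to 18280 FPKM in wild type, 20040 to 22140 in Blinc1+/- and 16940 to 26440 in Blinc1-/-, with all 11 higher in both mutant groups and none called. A further 3 of the 14 listed acinar genes were left out because their estimates had failed in some libraries. Mesenchyme markers, 12 in all, summed to 1851 to 2502, 1665 to 1977 and 1474 to 2124, and 15 endocrine markers to 4213 to 5936, 3325 to 5138 and 3187 to 5151. In Blinc1-/- replicate 1, where members were lowest, the acinar sum (16940) was the lowest of the 9, while in wild-type replicate 1 it was 18280. In that Blinc1-/- library 12 of 12 mesenchyme, 13 of 15 endocrine, 8 of 8 neuron and glia and 7 of 8 endothelial markers were above their own means, and 0 of 11 acinar markers were. The counts there were 5 of 7 for duct and trunk, 5 of 9 for erythroid and 4 of 9 for immune markers. Wild-type replicate 3 also had 0 of 11 acinar markers above their means, but 64 of 81 members above theirs. In Blinc1-/- replicate 2 all 11 acinar markers and 39 of 81 members were above their means, where 4683 of 13306 tested genes were above theirs. Endothelial markers (8) summed to 174 to 204, 166 to 176 and 142 to 181, duct and trunk markers (7) to 760 to 901, 755 to 852 and 743 to 811, and immune markers (9) to 254 to 280, 238 to 286 and 204 to 239. The 14 cell cycle genes summed to 906 to 1022, 994 to 1003 and 943 to 1030, and the 8 neuron and glia markers to 59.5 to 85.4, 52.0 to 190 and 55.9 to 152. The part of tissue makeup in the library differences of the ribosomal protein genes was not tested.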

How the data were processed

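RNA of whole pancreas was measured in 9 libraries. The authors deposited FPKM per gene and, in the same unit, the bounds of a confidence interval, per the file headers. Libraries were TruSeq, and TopHat 2.0.4 mapped reads to mm9 with 4 mismatches and no more than 10 hits, per the series' design text. The submitters' processing notes also name CASAVA 1.8.2, Cufflinks and DESeq. The sources used here name no gene annotation or strand setting.

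Loci with 1 symbol were summed (248 symbols), and 4 symbols with failed estimates for excess data were left out. All 81 members had the status OK in every library. The bounds imply a number of fragments, if they lie 2 standard errors from the value and the error is that of counting. Tests used limma 3.58.1 (R 4.3.3) on log2(FPKM + 1) with an intensity trend, genotype as the only term, all 9 libraries, a minimum of 1 FPKM in 3 libraries and Benjamini-Hochberg adjustment over 13306 genes at 0.05, two-sided. This scale understates the differences of low genes. Tests were also run on simulated data. Copies were searched with blastn 2.17.0. Groups and replicate numbers come from the sample titles. Replicate numbers of Blinc1-/- and Blinc1+/- deviated together over 7169 genes (r of 0.168, 0.271 and 0.189). The replicate number was therefore a block in an alternative, though the labels do not say what a number marks. That block covered all 9 libraries, wild type included. With 3 libraries against 3, an exact permutation test cannot go below p = 0.1, and none was used.

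Genes were named by rule: in each comparison the 3 higher and 3 lower members with the smallest p, the 5 highest and 5 lowest by mean, the 5 most and 3 least variable, paralogs and their parents, stalk genes, Rpl5, Rpl11, Rps27a, X-linked members, those near the threshold, Fau and Gnb2l1, and 2 genes per list and comparison. Some genes that this rule names are not reported here. Copies, departing libraries and printed sequences were chosen after their values were seen. The members and all lists were chosen with earlier results of these data known.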

Additional observations from a re-analysis of the deposited data

How the results depend on the processing

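The number of members called and their median difference were recomputed under 19 alternatives: pseudocount, low filter, scaling, only the libraries of 2 groups, replicate block, sex as a covariate, each library left out, Blinc1-/- replicate 1 and Blinc1+/- replicate 1 left out together, and 1 row per locus. Of 57 counts of called members 55 stayed at 0. Without Blinc1+/- replicate 2 limma called 1 member, Rps19, in Blinc1+/- against wild type and 1, again Rps19, in Blinc1-/- against Blinc1+/- (leave-one-out range 0 to 1 in both, and 0 to 0 for Blinc1-/- against wild type). Medians moved by less than the pooled SD between library medians (0.058) in 55 of 57 cases. In Blinc1-/- against wild type the median was 0.021 both without Blinc1-/- replicate 1 and without it and Blinc1+/- replicate 1, in place of -0.04. With each library left out it ran from -0.084 to 0.021 there, from -0.01 to 0.05 in Blinc1+/- against wild type and from -0.08 to 0.00 in Blinc1-/- against Blinc1+/-. With a replicate block over all 9 libraries, wild type included, 0 members were called and the medians were -0.04, 0.03 and -0.05, as without it. Numbers of wild type and Blinc1-/- did not pair (r of -0.211, 0.009 and 0.159), nor those of wild type and Blinc1+/- (-0.153, -0.123 and 0.328). In Blinc1-/- against wild type, 29 of 81 members and 41.5% of all genes were above 0. The values were 36 and 49.9% with scaling by median ratios, and 25 and 53.9% with quantile normalisation. Of 342 recomputed differences of named members none changed direction and 2, both Rps19 without Blinc1+/- replicate 2, passed. Members such as Rps12, with 31.9 to 42.4 implied fragments per library, have the least depth behind them.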

Other observations

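A single microRNA row inside a copy of Rpl37a stood out. Mir682, on mm9 chromosome 13 from 75782494 to 75782589, lies in a stretch that is 99.6% identical to the Rpl37a coding sequence. It was listed at 639700 FPKM in Blinc1+/- replicate 3 and at 0 in the other 8 libraries, while Rpl37a was at 57.2 to 75.8 FPKM and at 70.0 in that library. Rpl30 had a row of its own locus, Gm12191, at 26.9 FPKM in Blinc1-/- replicate 2, 5.60 in Blinc1+/- replicate 2, 1.38 in Blinc1-/- replicate 3 and under 0.01 in the other 6. Rpl28, with 4 copies, ranged from 75.8 FPKM in Blinc1-/- replicate 1 to 223 in Blinc1+/- replicate 3. These rows were chosen after their values were seen.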
